A study of Mus musculus with 40 samples.

Results

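The genes described here are the small nucleolar RNAs and the genes that carry them, chosen by name: every symbol beginning with Snora, Snord, Scarna or Snhg, and Gas5. They numbered 58 of the 20078 gene symbols in the 4 deposited expression tables, with 13 Snora, 25 Snord, 2 Scarna and 18 Snhg or Gas5 genes. Of these, 29 were listed in all 4 tables and 12 in a single table. The tables cover 2 tissues of C57BL/6J mice, liver and gWAT (gonadal white adipose tissue, a fat pad next to the gonads). They give, in this order, daughters of nicotine-exposed fathers and daughters of control fathers, then sons of nicotine-exposed fathers and sons of control fathers, for each tissue. The labels give no age of the offspring and no dose, and the table headers call the control DMSO. Each group has 5 libraries, except male gWAT control with 4 columns, so 39 libraries were analysed. Since no label ties a sample to an animal, litter or father, p-values reflect the spread between samples alone, and part of that spread may be technical.

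Small nucleolar RNAs are short, stable RNAs that guide the chemical modification of ribosomal RNA. Box C/D members (Snord) guide methylation of ribose and box H/ACA members (Snora) guide the conversion of uridine to pseudouridine, while the related Scarna RNAs act on spliceosomal RNAs in Cajal bodies. A few, such as Snord3a (U3) and Snord118 (U8), serve in the cutting of the ribosomal RNA precursor instead. In mice most are released from introns of a host gene, and many hosts encode ribosomal proteins or translation factors. The Snhg genes and Gas5 are hosts whose spliced RNA codes for no known protein. Their spliced RNAs begin with the same pyrimidine-rich start as ribosomal protein mRNAs, and Gas5 is a classical target of nonsense-mediated decay, the pathway that removes RNAs with early stop codons.

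Mature small nucleolar RNAs carry no poly(A) tail, and the libraries were 3′-tag libraries of polyadenylated RNA. A read on such a row can come from the small RNA, from a tailed precursor or from the gene around it, and the counts do not tell these apart. The sequences of 4 small RNAs that carry many of the results are printed from the GENCODE M21 transcripts (GRCm38, that is mm10), 5′ to 3′ on the RNA strand, to show what a read on each row would have to match. In Snora81 the capitals mark the stretch of 10 bases richest in A. In Snora30 they mark the ACA that closes box H/ACA RNAs 3 bases from the end. In the Snord RNAs they mark the C box (TGATGA) and the D box (CTGA).
Snora81: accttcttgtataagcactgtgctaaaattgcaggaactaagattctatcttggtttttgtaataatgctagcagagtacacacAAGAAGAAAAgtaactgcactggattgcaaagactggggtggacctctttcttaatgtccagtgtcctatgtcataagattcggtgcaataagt
Snora30: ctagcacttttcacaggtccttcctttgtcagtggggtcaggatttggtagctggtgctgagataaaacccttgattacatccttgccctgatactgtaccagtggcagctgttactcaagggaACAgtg
Snord89: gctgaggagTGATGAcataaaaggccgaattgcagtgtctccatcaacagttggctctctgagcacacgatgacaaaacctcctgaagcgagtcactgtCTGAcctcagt
Snord104: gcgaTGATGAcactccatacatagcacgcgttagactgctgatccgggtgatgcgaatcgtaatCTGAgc

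Snora81 (chr16:23110756-23110933, plus strand, 178 bases) lies within Eif4a2, the gene of a translation initiation helicase, inside an exon of one of its non-coding transcripts. Its richest stretch holds 8 A in 10 bases, and a stretch with 8 or more was present in 81 of the 1558 small nucleolar and Cajal body RNA transcripts of the annotation (5.2%). Its annotated end holds ATA at the place of the terminal ACA, and an exact ACA there was found in 301 of the 1558 (19.3%). Variants of the ACA were not searched. Snora30 (chr7:127527874-127528003, plus strand, 130 bases) lies in an intron of Srcap, a chromatin remodelling ATPase. Snord89 (chr1:39548745-39548854, minus strand) lies in an intron of a predicted non-coding gene, 2441 bases downstream of the end of Rnf149 on the same strand. Snord104 (chr11:106500993-106501062, plus strand) has no annotated host. A C box before the midpoint with a D box in the last 20 bases was found in 321 of the 1558 transcripts (20.6%), searched on the RNA strand only. Of the 40 Snora, Snord and Scarna rows, 36 matched the annotation by symbol. Of the 8 matched rows that reached a mean of 10 normalized counts in some table, 4 had no host gene, against 1 of the 28 rows that did not.

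Values are normalized counts, the authors' read counts divided by a size factor per library, and log2 changes are differences of group means of log2(normalized count + 1), nicotine minus control. For rows with few counts this scale understates the change. Genes with a mean of 10 or more in a table were tested with limma, with p-values adjusted over all genes tested in that table and a threshold of 0.05. Snora30 and Snora81 were singled out because of their nicotine difference in these data, so their values are a description with no test. Libraries held 1543208 to 2239073 reads assigned to genes. The defining hepatocyte markers were high in all liver libraries and the adipocyte markers in all gWAT libraries, but some libraries stood apart. In male gWAT, 4 epididymis markers summed to 14855 in nicotine library 1 and to 19724 in control column 1, against 20.9 to 3463 in the other libraries. In male liver, nicotine library 4 held 4862 normalized counts of 5 skeletal muscle markers and nicotine library 2 held 5878 of 3 pancreas markers, against at most 5.89 and 132 in the other libraries. In female gWAT, control library 2 held 18966 of the muscle markers and control library 4 held 361 of 2 ovary and oviduct markers.

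In the livers of daughters, rows of small nucleolar RNAs were lower with paternal nicotine, while the Snhg genes and Gas5 did not pass the test. Of the 15 members tested, leaving out Snora30 and Snora81, 3 fell and 0 rose. All 3 were Snord rows: Snord89, Snord13 and Snord3a. Among all genes tested in these livers 3.28% passed, 1.67% lower and 1.61% higher. The 5 Snord rows tested had a median log2 change of -0.80, and the median over all genes was -0.0045. For the livers of either sex the share of all genes whose groups do not overlap is not given. Non-overlap in liver is therefore a description only. Fewer cells of a type and less RNA per cell cannot be told apart in such bulk samples.

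Snord89, a box C/D RNA thought to act in RNA modification, had 366, 309, 496, 516 and 350 normalized counts in nicotine livers, against 1026, 785, 570, 819 and 822 in control livers. The groups did not overlap, and the lowest control library lay above the highest nicotine library. Its log2 change was -0.98 ± 0.15 (SE, adjusted p = 0.000547), a mean 0.507 times that of controls. Rnf149, a membrane ubiquitin ligase and the nearest gene upstream on the same strand, averaged 699 ± 100 in nicotine livers and 726 ± 23.3 in control livers (SD, n = 5 each; adjusted p = 0.774).

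Snord13 (U13), known in human and yeast to guide the acetylation of small-subunit ribosomal RNA, had 316, 329, 274, 214 and 242 normalized counts in nicotine livers, against 451, 666, 303, 488 and 810 in control livers. The groups overlapped in 1 control library, the one at 303. The log2 change was -0.92 ± 0.19 (adjusted p = 0.0089).

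Snord3a (U3), which base-pairs with the ribosomal RNA precursor during its first cuts, had 23.6, 12.4, 24.7, 17.4 and 20.7 normalized counts in nicotine livers, against 34.0, 36.6, 29.7, 38.0 and 32.8 in control livers. All control libraries lay above all nicotine libraries, with a log2 change of -0.80 ± 0.20 (adjusted p = 0.0286). Snord3a missed the threshold under 7 of 17 alternatives, with adjusted p up to 0.0955. Snord89 and Snord13 passed under all 18 run for each. Removing the trend on transcript length, described below for gWAT, was not among these and was not run in liver. In these livers genes under 500 bases had a median log2 change of -0.07, with 10 of 332 called lower and 3 higher. Snord118 (U8) had a log2 change of -0.68 ± 0.21 and did not pass (adjusted p = 0.093). Snord104 had a log2 change of -0.32 ± 0.31 (adjusted p = 0.644). U3 belongs to a family of near-identical copies, so reads of Snord3a may be shared with other copies, and its value is uncertain.

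Snora30, a box H/ACA RNA, had 27.5, 6.66, 56.9, 17.4 and 26.9 normalized counts in nicotine livers, against 155, 128, 77.7, 217 and 73.7 in control livers. The groups were fully apart, with means of 27.1 ± 18.7 in nicotine livers and 130 ± 59.4 in control livers (SD, n = 5 each), and a log2 change of -2.39. Its host Srcap had 22.6 to 37.2 normalized counts in nicotine livers and 38.8 to 53.0 in control livers, with a log2 change of -0.61 ± 0.17 that did not pass (adjusted p = 0.0554). The ratio of Snora30 to Srcap within a library ran from 0.179 to 2.30 in nicotine livers and from 1.53 to 4.75 in control livers, so the ratios overlapped although the counts did not.

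Snora81 had 224, 98.9, 237, 173 and 157 normalized counts in nicotine livers, against 358, 301, 260, 260 and 268 in control livers. The highest nicotine library lay below the lowest control library, and the log2 change was -0.75. Its host Eif4a2 averaged 125 ± 21.1 in nicotine livers and 107 ± 19.2 in control livers (adjusted p = 0.433). Reads on mitochondrially encoded genes made up 16.5 to 19.4% of nicotine livers and 18.9 to 20.7% of control livers; their part in the result was not tested. Control library 4 and nicotine library 5 carried muscle markers, summing to 257 in nicotine library 5 and 139 in control library 4, and without both libraries 2 of the 3 Snord rows passed.

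No call was made among the host genes in these livers. Of the 10 Snhg genes and Gas5 tested, 0 passed with limma, edgeR or DESeq2, and 1 had an unadjusted p under 0.05, as did 17.6% of all genes tested; it was Snhg12, with a log2 change of 0.48 ± 0.21 (adjusted p = 0.231). Gas5 averaged 259 ± 56.7 normalized counts in nicotine livers and 289 ± 8.27 in control livers. Snhg3, which holds the Snora73 RNAs, averaged 65.0 ± 10.5 in nicotine livers and 60.4 ± 0.949 in control livers. Both genes varied more among nicotine livers than among control livers. The 10 had a median log2 change of -0.08, against -0.0045 for all genes.

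**Figure D1:**
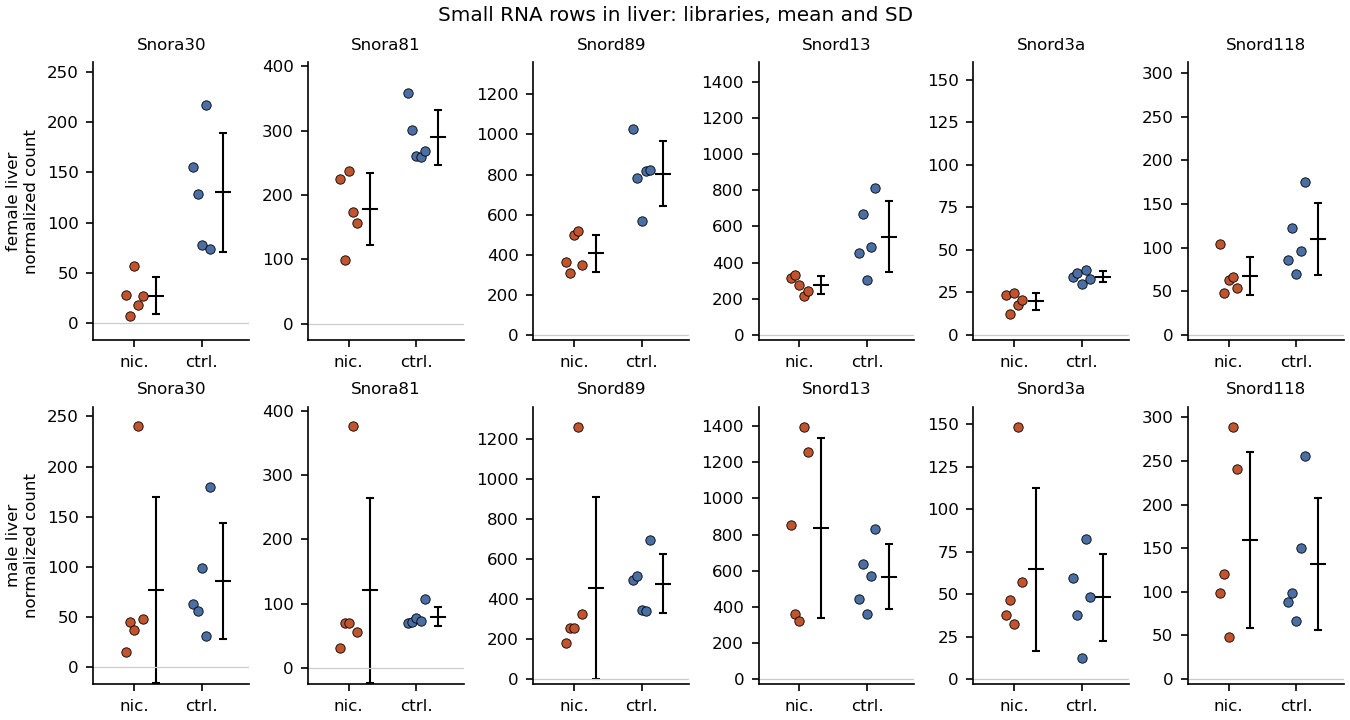
Normalized counts (linear axes, shared between the rows for each gene) of 6 small RNA rows in livers of daughters (top) and sons (bottom); each point is a library, with nicotine (nic.) left of control (ctrl.), and bars give the mean and SD. In daughters Snord89 and Snord3a do not overlap between groups, nor do Snora30 and Snora81, which were singled out because of their nicotine difference. In sons nicotine library 4 is the highest point in each panel.

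In the livers of sons no member passed with limma. Of the 16 tested, leaving out Snora30 and Snora81, 0 passed, and 2 had an unadjusted p under 0.05, as did 14.5% of all genes tested. Over all members listed, edgeR called 0 and DESeq2 called 1. Among all genes tested with limma in these livers 0.055% passed. DESeq2, run on all 14591 genes listed, called 161 of them. Nicotine library 4 had 1260 normalized counts of Snord89, where the other 4 nicotine livers had 180 to 323 and the control livers 342 to 693. The same library had 376 normalized counts of Snora81, where the other nicotine livers had 30.9 to 70.5 and the control livers 70.2 to 106. For Snora30 it had 241, where the other nicotine livers had 14.7 to 48.3 and the control livers 31.3 to 179. It was also the library with the skeletal muscle markers, and its mt-Rnr2 count was 212446, against 113265 to 140919 in the other nicotine livers and 151895 to 168618 in control livers; their part was not tested. Without nicotine libraries 2 and 4 the log2 change of Snora81 was -0.66, against 0.02 with all libraries. That of Snora30 was -1.25, against -0.55. This exclusion was added after seeing the data, and it gave -0.90 for Snord89 and 0.36 for Snord13. A planned fit left out nicotine libraries 1 and 5. These held 50043 and 49105 of the hepatocyte markers, against 60702 to 69490 in control livers. The planned fit gave -0.085 for Snord89 and -0.0040 for Snord13, against -0.42 and 0.37 with all libraries.

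Snhg6, a host, was the member that DESeq2 called, also in the authors' deposited table. With a mean of 8.93, Snhg6 lay under the filter used for limma and edgeR. It had 33.8, 19.7, 13.6, 6.40 and 5.73 normalized counts in nicotine livers, against 0.989, 2.11, 1.77, 2.94 and 2.24 in control livers. All nicotine libraries were above all control libraries, and the nicotine libraries spread widely. Snhg6 overlaps a gene on the opposite strand, Mcmdc2, and with no stated use of strand reads from the stretch the 2 share cannot be told apart. Snhg12, at 46.3, 41.5, 31.4, 33.3 and 45.0 in nicotine livers and 21.8, 35.9, 29.2, 20.5 and 22.4 in control livers, had a log2 change of 0.60 ± 0.20 and did not pass (adjusted p = 0.208).

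The nicotine effect on members did not differ between daughters and sons in liver past the threshold. Of 15 members tested for the difference with limma, 0 passed and 2 had an unadjusted p under 0.05, where 1.56% of all genes passed and 16.3% had an unadjusted p under 0.05. For Snord89 the log2 change was -0.98 in daughters and -0.42 in sons. Without male nicotine library 4 it was -0.89 in sons, and the difference between the sexes was -0.094. For Snord13 it was -0.92 in daughters and 0.37 in sons. The difference for Snord13 was -1.29 and did not pass (adjusted p = 0.185). Without male nicotine library 3 it was -1.57 and passed (adjusted p = 0.0475). It passed in no other fit that left out 1 library (adjusted p from 0.0674 to 0.295).

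In the gWAT of daughters the members that passed, host genes and Snord rows alike, were lower with paternal nicotine. Of the 19 members tested, leaving out Snora81, 10 fell and 0 rose, and all 19 had a negative log2 change. Among all genes tested in this tissue 25.2% passed, 12.8% lower and 12.4% higher. Of the 10, 8 were host genes: Snhg3, Snhg8, Gas5, Snhg9, Snhg18, Snhg4, Snhg5 and Snhg12. The other two were Snord104 and Snord89. The 13 Snhg genes and Gas5 tested had a median log2 change of -0.92, against -0.03 for all genes, and in 7 of the 13 the libraries of the groups did not overlap, as in 16.7% of all genes tested. The 5 Snord rows tested had a median log2 change of -0.89, and all 5 were negative.

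Snhg3 had 94.0, 94.2, 121, 82.9 and 136 normalized counts in nicotine gWAT, against 600, 423, 390, 426 and 349 in control gWAT. No nicotine library came near the control range. The log2 change was -2.04 ± 0.19 (adjusted p = 3.0e-05), a mean 0.241 times that of controls.

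Snhg8, which in human hosts a box H/ACA RNA, had 146, 107, 69.1, 107 and 105 normalized counts in nicotine gWAT, against 534, 344, 361, 417 and 318 in control gWAT. The groups were again fully apart, with a log2 change of -1.89 ± 0.20 (adjusted p = 6.6e-05).

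Gas5, named for its rise in growth-arrested cells and host of several box C/D RNAs including Snord47, had 555, 371, 266, 293 and 378 normalized counts in nicotine gWAT, against 1205, 979, 811, 1114 and 956 in control gWAT. The highest nicotine library stayed below the lowest control library. The log2 change was -1.48 ± 0.20 (adjusted p = 0.000284). Gas5 overlaps Zbtb37 on the opposite strand, and Snhg9 overlaps Rps2, so reads from the stretch a pair shares cannot be told apart without strand. No opposite-strand gene is annotated over Snord47, which lies within Gas5.

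Snhg18 had 177, 114, 90.9, 84.1 and 119 normalized counts in nicotine gWAT, against 377, 223, 198, 462 and 338 in control gWAT (log2 change -1.42 ± 0.25, adjusted p = 0.00158). Snhg9, which holds Snora78, had 35.5, 15.7, 45.5, 21.6 and 30.0 in nicotine gWAT, against 140, 77.0, 57.6, 111 and 64.6 in control gWAT (log2 change -1.58 ± 0.30, adjusted p = 0.00241). In both genes the groups did not overlap. The 3 remaining hosts had smaller changes, at -1.07 ± 0.30 for Snhg4, -0.92 ± 0.29 for Snhg5 and -0.74 ± 0.22 for Snhg12, with adjusted p from 0.018 to 0.0313. Snhg4 passed under 17 of 18 alternatives, Snhg5 under 14 of 19 and Snhg12 under 13 of 20. The groups overlapped in Snhg4 and not in Snhg5 or Snhg12, where the closest libraries were 35.6 in nicotine gWAT and 39.4 in control gWAT for Snhg5, and 86.0 in nicotine gWAT and 87.0 in control gWAT for Snhg12.

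The other 5 host genes tested did not pass. Snhg1 had a log2 change of -0.63 (adjusted p = 0.105), Snhg20 of -0.49 (adjusted p = 0.0829) and Snhg7 of -0.35 (adjusted p = 0.405). Snhg6 had a log2 change of -0.65 (adjusted p = 0.558) and ran from 0.938 to 27.5 in nicotine gWAT and from 4.97 to 38.5 in control gWAT. Snhg11, which is best known from brain, averaged 122 ± 37.3 in nicotine gWAT and 127 ± 34.3 in control gWAT, with a log2 change of -0.08 (adjusted p = 0.856).

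**Figure D2:**
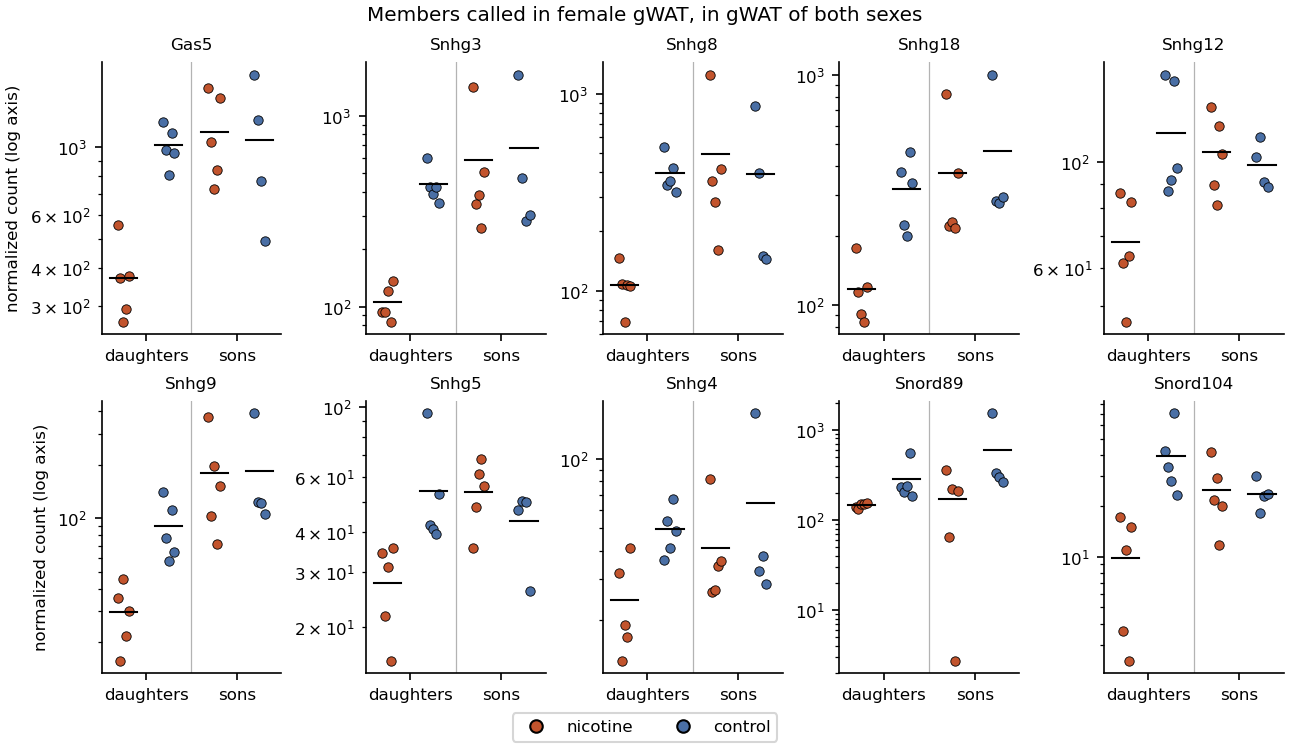
Normalized counts (log axes, a separate scale for each gene) of the 10 members that passed in female gWAT, in gWAT of daughters (left of each panel) and sons (right); each point is a library, nicotine left of control, and lines are group means. In daughters Gas5, Snhg3 and Snhg8 lie lower in all 5 nicotine libraries than in any control library, while the groups overlap in sons.

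Of the small RNA rows in the gWAT of daughters, Snord104 had 17.2, 3.62, 10.9, 2.40 and 15.0 normalized counts in nicotine gWAT, against 42.1, 33.9, 27.9, 70.5 and 23.2 in control gWAT. It guides ribose methylation in ribosomal RNA, and its groups did not overlap (log2 change -2.09 ± 0.47, adjusted p = 0.0064). Snord89 had 138, 130, 150, 151 and 155 in nicotine gWAT, against 229, 204, 238, 557 and 183 in control gWAT (log2 change -0.83 ± 0.25, adjusted p = 0.0259). Without control library 4 the change of Snord89 was -0.55, still past the threshold, and without nicotine library 2 it missed (adjusted p = 0.0607). Snord13 averaged 222 ± 37.9 in nicotine gWAT and 386 ± 172 in control gWAT and just missed the threshold (log2 change -0.71 ± 0.25, adjusted p = 0.0502). Snord3a averaged 20.9 ± 6.15 in nicotine gWAT and 44.2 ± 26.8 in control gWAT (log2 change -0.89 ± 0.36, adjusted p = 0.0834). In the authors' deposited table both were called lower, Snord13 with an adjusted p of 0.0219 and Snord3a with 0.0496. With the length trend described below removed, the log2 change of Snord13 was 0.16 (adjusted p = 0.462). Snora30 was near the detection limit, at 0 to 2.73 in nicotine gWAT and 1.83 to 8.82 in control gWAT. In the authors' deposited table Snord49b was called higher in nicotine, with a mean of 4.55 that lay under the filter used here; it was chosen after its values were seen.

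Short transcripts as a whole were shifted down in these nicotine libraries. Genes with a median annotated transcript under 500 bases had a median log2 change of -0.40, with 99 of 401 called lower and 19 called higher, while genes of 2000 bases or more had a median of 0.05, with 329 of 3365 called lower and 491 higher. The 11 Snhg genes and Gas5 with an annotated length ran from 183 to 1486 bases, with a median of 603, against 1366 for all genes tested. With each library's trend on transcript length removed, 5 members passed: Snhg3, Snhg8, Gas5, Snhg18 and Snhg9, with log2 changes of -1.78, -1.68, -1.31, -1.36 and -0.98. Snhg5 (log2 change -0.80, adjusted p = 0.0514) and Snhg12 (-0.63, adjusted p = 0.0517) then missed the threshold with changes close to those before. Snhg4, Snhg7 and Snord3a have no annotated length and were not in that fit. Snord89 then had a log2 change of 0.0079 and Snord104 of -1.02 (adjusted p = 0.0587). Snord13, which had not passed before, then had 0.16 (adjusted p = 0.462), against -0.71 before. The other members that had not passed before did not pass in that fit either. Their log2 changes were -0.46 for Snhg1, -0.45 for Snhg6, -0.35 for Snord118, -0.32 for Snhg20, -0.10 for Scarna17 and -0.0028 for Snhg11. The members in that fit were themselves among the genes that set the trend. Snord104, Scarna17, Snord13, Snord89 and Snord118 are short, at 70, 79, 104, 110 and 135 bases. How much of the change of these 5 rows goes with length therefore cannot be told from that fit. The macrophage markers summed to 62.5 to 168 in nicotine gWAT and 239 to 587 in control gWAT, and the adipocyte markers to 20782 to 33111 in nicotine gWAT and 21986 to 48624 in control gWAT. The part of macrophage content was not tested. Without control libraries 2 and 4, which held muscle and oviduct markers, 8 members passed.

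Snora81 moved the other way, and further than any member tested in that tissue. Snora81 was itself singled out because of its nicotine difference in these data, so this rank is a description only. It had 2121, 2094, 277, 1677 and 605 normalized counts in nicotine gWAT of daughters, against 49.98, 37.6, 40.2, 74.2 and 48.0 in control gWAT. The lowest nicotine library was above the highest control library, and the nicotine libraries themselves were far apart. The means were 1355 ± 860 in nicotine gWAT and 49.99 ± 14.5 in control gWAT (SD, n = 5 each), a ratio of 27.1 and a log2 change of 4.40. The host Eif4a2 went the opposite way, with 238, 190, 193, 194 and 175 in nicotine gWAT and 313, 228, 289, 311 and 271 in control gWAT (log2 change -0.51 ± 0.15, adjusted p = 0.0235). Snora81 had 1.44 to 11.0 normalized counts for each one of Eif4a2 in nicotine gWAT and 0.139 to 0.238 in control gWAT.

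Mitochondrial reads were also higher in these libraries. They took 19.3 to 32.5% of reads in nicotine gWAT and 8.23 to 13.0% in control gWAT. The mitochondrial large ribosomal RNA, mt-Rnr2, had 472871, 489560, 253734, 522741 and 246502 normalized counts in nicotine gWAT, against 143256, 98995, 121740, 123493 and 78102 in control gWAT (log2 change 1.77 ± 0.43, adjusted p = 0.0095). The 2 nicotine libraries lowest for mt-Rnr2 were the 2 lowest for Snora81. In livers of daughters mt-Rnr2 ran from 230817 to 282178 in nicotine livers and from 278622 to 314731 in control livers. In sons the gWAT library lowest for Snora81, nicotine library 4 with 2.72, was lowest for mt-Rnr2 with 5438, but the library highest for mt-Rnr2, nicotine library 5 with 108776, had 9.33 of Snora81, the second lowest. In livers of sons nicotine library 4 was highest for both. Whether the 2 have a common source was not tested. Scaling each library to the same total without mitochondrial genes left the log2 change of Snora81 at 4.35.

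**Figure D3:**
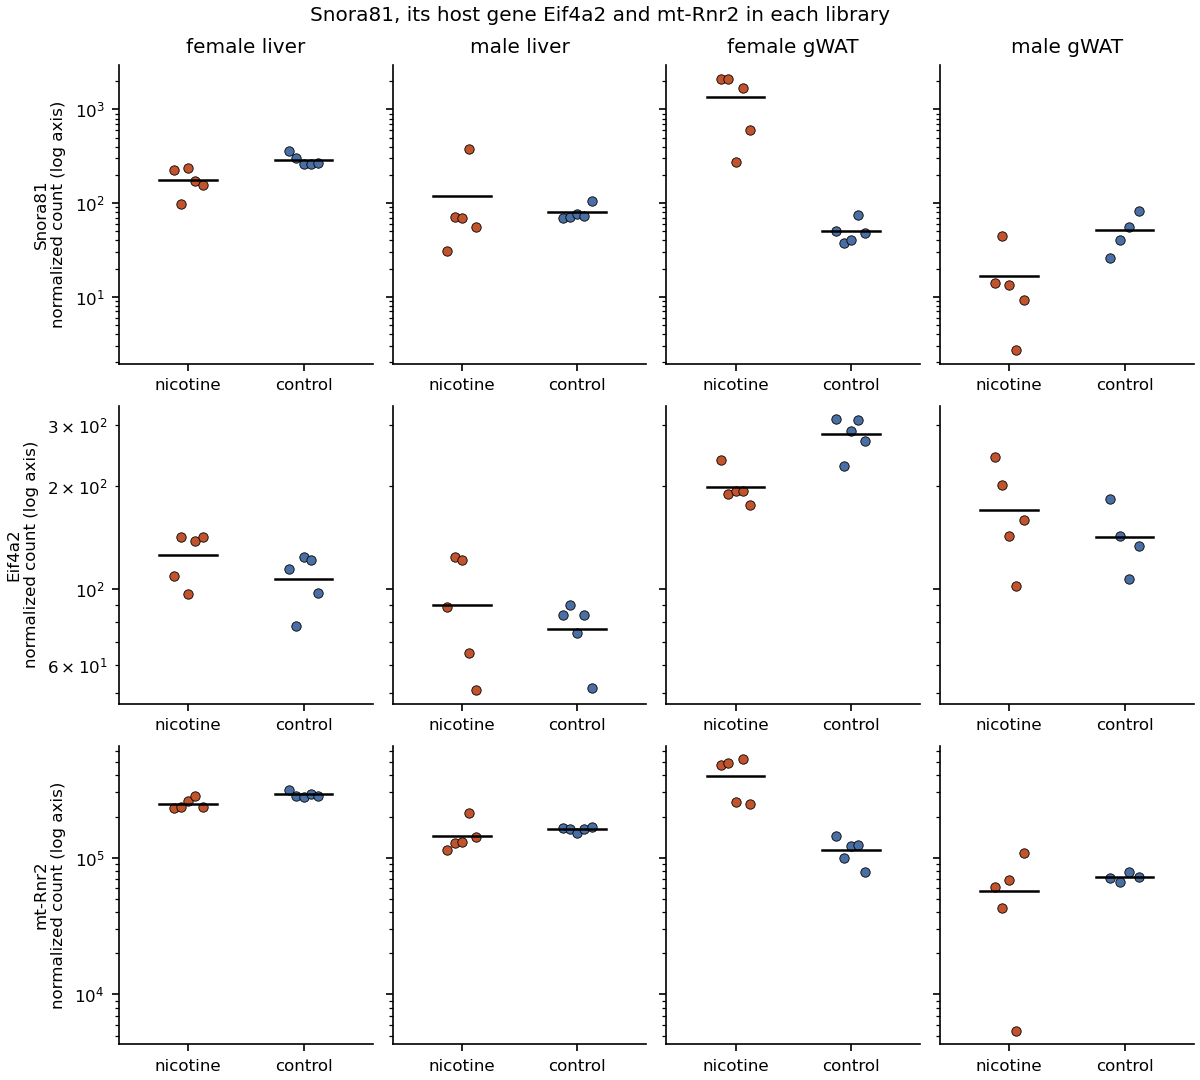
Normalized counts (log axes, shared along each row) of Snora81, its host gene Eif4a2 and mt-Rnr2 in the 4 tables; each point is a library, nicotine left of control, and lines are group means. In female gWAT Snora81 lies at 277 to 2121 in nicotine libraries and 37.6 to 74.2 in control libraries, mt-Rnr2 is also higher, and Eif4a2 is lower.

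Other genes that host a small RNA, outside the Snhg genes, also moved in the gWAT of daughters. Of 20 tested, 10 fell and 2 rose, where 12.8% of all genes fell and 12.4% rose, with a median log2 change of -0.56, against -0.03 for all genes. The ribosomal protein genes Rpl37, Rpl23 and Rpl27a, which host Snord72, Snora21 and Snora3, had log2 changes of -1.38, -0.88 and -0.79. Eef2, a translation elongation factor and host of Snord37, had -0.83, and the non-coding host 2410006H16Rik, with Snord49b and Snord65, had -2.09. The 2 that rose were Srcap, at 28.4 ± 7.39 in nicotine gWAT and 14.9 ± 6.93 in control gWAT, and Eif5, an initiation factor and host of Snora28, at 687 ± 69.1 in nicotine gWAT and 410.5 ± 32.7 in control gWAT. Cytosolic ribosomal protein genes, a group added after values had been seen, had 41 of 81 lower, 0 higher and a median log2 change of -0.66, against the same 12.8% and 12.4% of all genes.

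Among proteins that build or bind small nucleolar RNAs, calls in the same tissue went in both directions, against 12.4% of all genes higher and 12.8% lower. Of 3 box C/D core proteins tested, Nop56 rose, at 32.4 ± 9.51 in nicotine gWAT and 10.6 ± 5.03 in control gWAT (log2 change 1.62 ± 0.37, adjusted p = 0.0061). Of 4 box H/ACA core proteins 0 passed with limma, edgeR or DESeq2, and 1 had an unadjusted p under 0.05. Of 12 assembly and Cajal body factors 2 rose, the box C/D assembly factor Nufip1 (log2 change 1.58) and the nucleolar chaperone Nolc1 (0.79), and 1 fell, the RNA-binding protein Taf15 (-0.58). Of 11 nucleolar proteins 2 rose, Nop14 (1.25), a small-subunit processing factor, and Pes1 (0.85), a large-subunit assembly factor.

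Factors of nonsense-mediated decay, for which Gas5 is a known target, gave 5 higher and 1 lower of 12 tested, with a median log2 change of 0.53 against -0.03 for all genes, and 25.2% of all genes passing in either direction. Upf3b, which links exon junctions to decay, averaged 236 ± 77.1 in nicotine gWAT and 88.7 ± 8.55 in control gWAT (log2 change 1.34 ± 0.22, adjusted p = 0.00088). Upf3a (log2 change 0.95), the kinase Smg1 (0.78) and the endonuclease Smg6 (0.78) also rose, and Eif4a3 (-0.58), a core exon junction protein, fell. In male gWAT and in the livers of both sexes 0 genes of these 6 lists passed with limma, edgeR or DESeq2. At an unadjusted p under 0.05 there were 10 of 56 in female liver, 9 of 58 in male liver and 1 of 60 in male gWAT, near the 17.6%, 14.5% and 1.62% of all genes tested in those tissues, in the same order.

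In the gWAT of sons no member passed. Of 18 tested, leaving out Snora81, 0 passed with limma, edgeR or DESeq2, and 0 had an unadjusted p under 0.05, where 0% of all genes tested passed. Nicotine library 1 and control column 1, those with the most epididymal transcripts, had the most Snhg3, at 1423 in nicotine library 1 and 1645 in control column 1. The others had 259 to 507 in nicotine gWAT and 282 to 472 in control gWAT. Snord13 was likewise 2135 in nicotine library 1 and 3120 in control column 1, against 205 to 1348 in the other nicotine libraries and 731 to 842 in the other control columns. Rnf149 was 3320 in nicotine library 1 and 3679 in control column 1, against 237 to 468 in the other nicotine libraries and 221 to 321 in the other control columns. The part of epididymal RNA in these values was not tested. Without both libraries 0 members passed. The libraries left still held epididymis markers, at 1312 to 3280 in nicotine gWAT and 20.9 to 3463 in control gWAT. Snord89 had 362, 64.9, 219, 2.72 and 209 in nicotine gWAT, against 1516, 330, 298 and 264 in control gWAT (log2 change -2.42 ± 1.18, adjusted p = 1.00). Without nicotine library 4, the one at 2.72, the change was -1.29. In that library 0.454% of reads were mitochondrial, against 4.21 to 9.58% in the other male gWAT libraries; its part in the result was not tested. Snora81 had 14.0, 44.2, 13.5, 2.72 and 9.33 in nicotine gWAT, against 26.3, 41.0, 56.0 and 83.4 in control gWAT, with a log2 change of -1.89. The groups overlapped through 1 nicotine library.

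The nicotine effect in gWAT differed between daughters and sons for 4 of 18 members, where 8.87% of all genes tested passed. The difference is the daughters' log2 change minus the sons', so the separate scaling of the tables cancels in it. It was -1.66 ± 0.42 for Gas5 (adjusted p = 0.0192), from -1.48 in daughters and 0.18 in sons. It was -2.28 ± 0.66 for Snhg8 (adjusted p = 0.0369), -2.06 ± 0.63 for Snord104 (adjusted p = 0.0447) and -1.95 ± 0.60 for Snhg3 (adjusted p = 0.0472). Gas5 passed under all 24 alternatives run, with adjusted p from 0.0053 to 0.0492. Snhg8 passed under 15 of 24, Snhg3 under 8 of 24 and Snord104 under 8 of 23. No alternative removed the length trend described above from this difference. Genes with transcripts under 500 bases had a median log2 change of -0.40 in gWAT of daughters and -0.018 in gWAT of sons. The part of that shift in the difference was not tested. Leaving out any one of female control libraries 1, 3 and 4, female nicotine libraries 2 and 4, male control columns 3 and 4 and male nicotine library 5 left 1 member. Leaving out female control library 2, female nicotine library 3, male control column 2 or male nicotine library 3 left 2. Leaving out male control column 1, alone or with male nicotine library 1, gave 6.

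**Figure D4:**
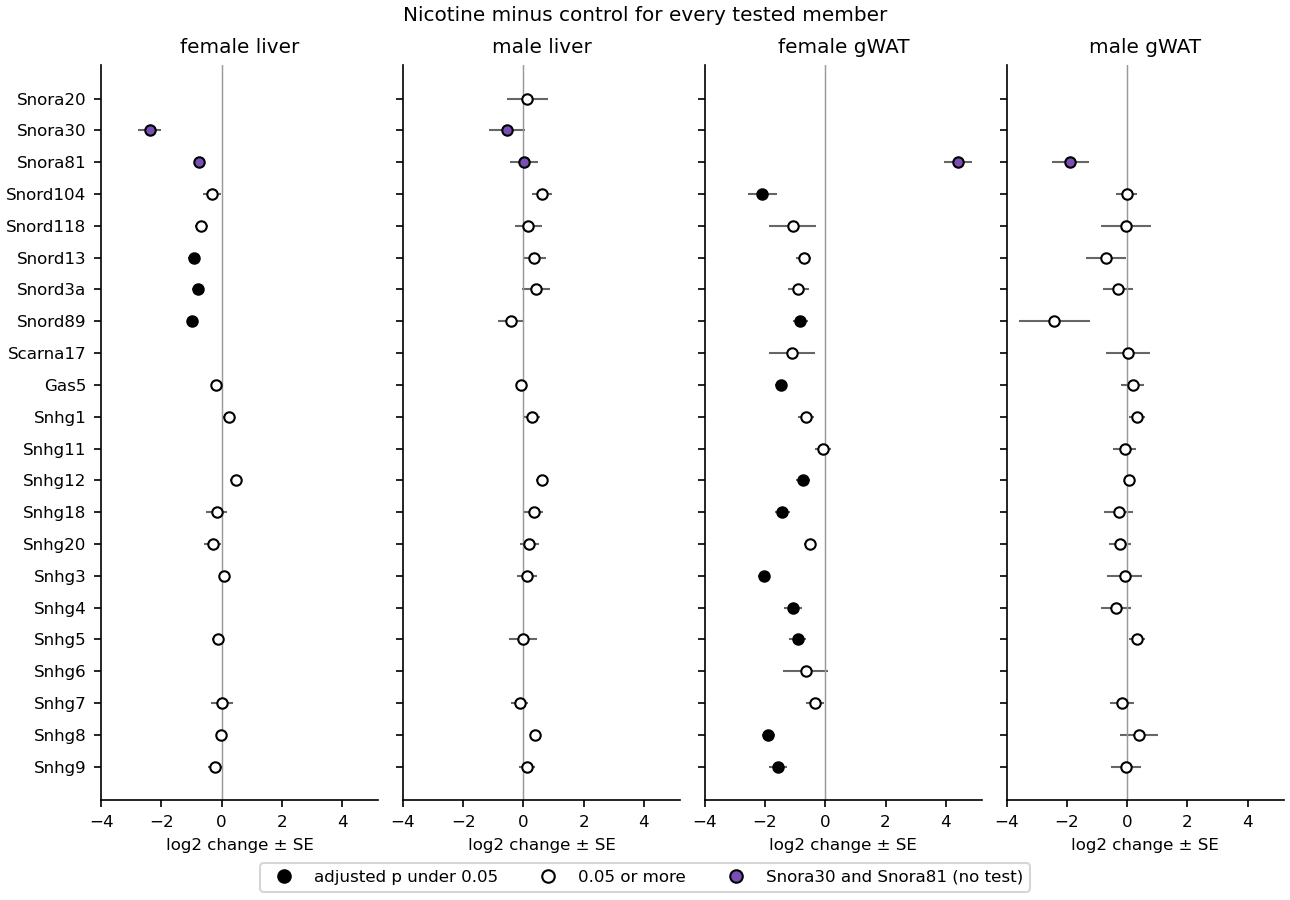
Log2 change (nicotine minus control, with SE) of every tested member in the 4 tables; filled black points passed the adjusted p threshold of 0.05, open points did not, and purple points are Snora30 and Snora81, for which no test is given. Passing members are Snord rows in female liver and mostly Snhg genes in female gWAT, all on the negative side.

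Levels in control tissue, given as CPM of the recovered reads because the tables were scaled separately, show where each member is read, with no test across tables. Snora30 was a liver row, at 65.9 ± 30.4 in livers of daughters and 45.2 ± 29.9 in livers of sons (SD, n = 5 each), and at 2.91 ± 1.58 in gWAT of daughters and 4.40 ± 1.58 in gWAT of sons (n = 5 and 4). Snora81 was at 146 ± 18.9 in livers of daughters, with no overlap with the 42.0 ± 7.70 in livers of sons, and near 30 in gWAT, at 30.3 ± 9.15 in daughters and 30.4 ± 15.3 in sons. Snhg18 was read mainly in gWAT, at 5.58 ± 2.54 and 7.14 ± 2.71 in livers of daughters and sons and at 194 ± 66.9 and 266 ± 194 in their gWAT. Gas5 was at 146 ± 3.37 and 168 ± 18.0 in the livers of daughters and sons and at 612 ± 73.9 and 609 ± 296 in their gWAT. Snord13 did not follow this order, at 275 ± 101 and 298 ± 90.8 in the livers of daughters and sons. In their gWAT it was at 233 ± 105 and 786 ± 633, with spreads as wide as the differences. In control gWAT of sons, column 1, with the most epididymis markers, was the highest column for Gas5, Snhg18 and Snord13. It had 1734 CPM of Snord13, and the lowest column had 417.

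Most of the remaining members were read little. Members with a mean under 10 numbered 22 of 39 listed in female liver, 31 of 49 in male liver, 16 of 36 in female gWAT and 27 of 46 in male gWAT. Among them were Snora20, in an intron of the chaperonin gene Tcp1, at 0 to 5.37 in nicotine livers of daughters and 1.93 to 20.9 in control livers, and Snora73b, at 0 to 4.13 in nicotine livers and 3.84 to 8.19 in control livers. Snora20 was tested in male liver, where it averaged 15.9 ± 15.5 in nicotine livers and 11.4 ± 7.51 in control livers (log2 change 0.13, adjusted p = 0.947). Scarna17, which guides modification of a spliceosomal RNA, was at 5.71 to 9.67 in nicotine livers of daughters and 4.82 to 16.5 in control livers. In gWAT it was tested and did not pass, at 10.1 ± 8.01 in nicotine gWAT and 18.7 ± 13.8 in control gWAT of daughters (log2 change -1.11, adjusted p = 0.297), and at 39.1 ± 28.1 in nicotine gWAT and 43.4 ± 50.3 in control gWAT of sons (log2 change 0.03, adjusted p = 1.00). Scarna2 was listed in male liver alone, at 0.736 to 2.56 in nicotine livers and 0 to 2.11 in control livers.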

How the data were processed

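Per the labels' protocols, RNA was column-purified and 3′-tag libraries of polyadenylated RNA were sequenced. Tools named in the submitters' processing notes are STAR, cutadapt and DESeq2, with mm10 as the genome. The sources used here give no versions, counting step, annotation, strand setting or gene filter. The deposited values are a signal: read counts that the authors divided by a size factor per library, within each table. Per the file headers, the tables also hold the authors' log2 fold change, its standard error (a score here) and p-value. The DMSO columns were read as the labels' control, and the 4 male gWAT control columns show no sample number.

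Whole reads were recovered from the signal: 100% of values came out whole within 0.1 reads. Each table was tested with limma 3.58.1 in R 4.3.3 (empirical Bayes, trend on the mean) of log2 values with a pseudocount of 1, on genes averaging at least 10, p-values being adjusted by Benjamini and Hochberg's method; sex differences used an interaction term. For male gWAT the planned fit had 5 control libraries and the fit made had 4. Alternatives were a pseudocount of 0.5 or 5, no filter or a mean of 50, edgeR 4.0.16 and DESeq2 1.42.0 on recovered reads, the replicate block and leaving out libraries. Of these, edgeR used genes averaging at least 10 and DESeq2 used all genes listed. The code was tested on simulated data. Tables and figures used Python 3.11.15, pandas 2.3.3, NumPy 2.4.6 and matplotlib 3.10.9. Hosts and sequences came from GENCODE M21 by symbol.

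The members and lists were chosen with earlier results of these data known. Named members are Snora30, Snora81, those past the threshold and the 5 most read of each class, with their hosts and up to 3 called genes of each list. Others named were chosen after their values were seen. Precision covers counting error and spread between libraries only. Some items are not reported here.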

Additional observations from a re-analysis of the deposited data

Results flagged for a closer look

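Among 118 groups of 4 or 5 libraries of named members, 23 had a library far from the others, where about 1 in 20 groups is flagged by chance. Of these, 4 were nicotine library 4 of male liver: Snora30 (241), Snora81 (376), Snord3a (148) and Snord89 (1260). Another 8 were control column 1 of male gWAT: Scarna17 (119), Snhg18 (1001), Snhg3 (1645), Snhg4 (158), Snhg9 (389), Snord118 (204), Snord13 (3120) and Snord89 (1516). Another 4 were nicotine library 1 of male gWAT: Snhg18 (824), Snhg3 (1423), Snhg4 (81.8) and Snhg8 (1248). The rest were Snhg12 in female liver control library 4 (34.2), Snora81 in male liver control library 5 (106), Snhg5 in female gWAT control library 1 (95.1), Snord118 (61.4) and Snord89 (557) in female gWAT control library 4, Snhg5 in male gWAT control column 4 (26.0) and Snora81 in male gWAT nicotine library 2 (44.2). Nicotine library 4 of male liver is also the library with skeletal muscle markers. In male gWAT, nicotine library 1 and control column 1 are those with the most epididymis markers. The part of these transcripts was not tested.

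The nicotine effect in gWAT differed between daughters and sons for Gas5 (-1.66), Snhg3 (-1.95), Snhg8 (-2.28) and Snord104 (-2.06). The values are the daughters' log2 change minus the sons', tested as an interaction with limma. The length trend was not removed in these tests.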

How the results depend on the processing

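Counts of members leave out Snora30 and Snora81. Leaving out 1 library at a time gave 2 to 4 members in female liver (3 with all), 7 to 12 in female gWAT (10 with all), 0 in male liver and male gWAT, 0 to 1 for the liver sex difference and 1 to 6 for the gWAT sex difference (4 with all). Over all genes it gave 185 to 329 in female liver (301 with all) and 0 to 16 in male liver (5 with all). In male liver DESeq2, run on all genes, called 1 member and 161 genes. With edgeR, run on genes averaging at least 10, 3 genes were called. A mean of 50 or more gave 0 genes and the replicate block 0 genes. The fit without nicotine libraries 2 and 4 gave 54 genes, and the planned fit without nicotine libraries 1 and 5 gave 6. Leaving out control library 4 and nicotine library 5 gave 181 genes in female liver. In female gWAT, leaving out control libraries 2 and 4 gave 1539 genes against 2656, and removing the length trend gave 5 of the 9 called members with an annotated length, with Snhg5 at an adjusted p of 0.0514 and Snhg12 at 0.0517, and turned Snord89 to 0.0079. The cause was not tested in each case. Alternatives added after seeing the data were the length trend, the scaling without mitochondrial genes, the sex difference without 1 library and the libraries named for other tissues' transcripts, except those of female liver. Same-numbered libraries correlated at -0.277 to 0.173, so the numbers were not taken to pair samples; a replicate block gave 3 members in female liver, 0 in male liver and 11 in female gWAT. No paired analysis was possible because the control columns carry no sample number in male gWAT, nor for the sex differences. Members under a mean of 10 rest on too few reads for a fold.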
